A study of Mus musculus with 4 samples.

Results

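Tmem119 and the ZsGreen reporter were followed as 2 of the 32286 features counted in single sorted brain cells, chosen by name: Tmem119 carries the driver of the lineage trace and ZsGreen is its product. Both were read as UMIs (unique molecular identifiers, each standing for 1 captured RNA molecule) per 10000 UMIs of a cell class, and as the share of cells with at least 1 UMI. The first measure gives the RNA present at harvest as a part of all RNA captured, and the second depends on how deeply each cell was read.

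All mice carried Tmem119-2A-CreERT2, an allele that makes a tamoxifen-inducible Cre recombinase together with the Tmem119 protein, and the Ai6 reporter of Cre activity. The stroke mice had the right middle cerebral artery ligated for good (pMCAO), and the sham mice had the operation without the ligation. Cells came from the hemisphere on the operated side, on day 3, after mechanical dissociation, a Percoll gradient and a sort for live ZsGreen-positive cells. There were 4 pools of 4 mice each, namely female stroke, female sham, male stroke and male sham, and the mice within a pool could not be separated. A sort on ZsGreen shaped every share of cells given here, no ZsGreen-negative cells were analysed, and the labels describe no mouse without the Cre allele.

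Tmem119 encodes a transmembrane protein that in the healthy brain is made largely by microglia, the resident macrophages of the tissue, and is widely used to tell them from macrophages that enter from the blood. Its RNA belongs to the homeostatic set of microglial genes, which depends on TGF-beta signalling and is known to be lowered when microglia are activated. In Ai6 the ZsGreen sequence sits in the Rosa26 locus behind the CAG promoter, which contains beta-actin promoter sequence, and a stop cassette that Cre removes for good. A recombined cell and its daughters can therefore go on making ZsGreen when the Tmem119 promoter is quiet. The presence of ZsGreen RNA thus marks past Cre activity, which by design needs tamoxifen as well as the promoter. Its level also depends on the CAG promoter at harvest, while Tmem119 RNA reflects present expression.

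In the mm10 build (GENCODE M21 annotation of GRCm38), Tmem119 (ENSMUSG00000054675) lies on the minus strand of chromosome 5, from 113793729 to 113800516, with 2 annotated protein-coding transcripts of 2 and 3 exons. ZsGreen is a transgene with a feature of its own and no position in that annotation. Whether reads from the Cre-bearing allele counted towards Tmem119 is not known from the sources used here.

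The pools held 66072270 (female stroke), 29581392 (female sham), 52733857 (male stroke) and 40970923 (male sham) UMIs. After filtering on genes, UMIs and mitochondrial share, between 4005 and 4980 cells per pool were used. The female stroke, female sham and male stroke pools reached down to 500 or 501 UMIs a barcode, while the male sham pool began at 4198. A mitochondrial share above 10% removed 14.0% of female stroke barcodes, 9.21% of female sham, 15.1% of male stroke and 0.84% of male sham. Between 4 and 11 cell barcodes were shared by any pair of pools, at most 0.22% of a pool. By 10 markers that left Tmem119 out (among them P2ry12 and Sall1), microglia-like cells made up 63.5% of the cells in the female stroke pool, 79.4% in female sham, 73.4% in male stroke and 80.8% in male sham, so the labelled cell type held for most cells and not for all.

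In microglia-like cells Tmem119 RNA was lower and ZsGreen RNA higher after stroke, in both sexes. Tmem119 stood at 4.35 UMIs per 10000 in female stroke and 9.58 in female sham cells, and at 4.66 in male stroke and 8.64 in male sham cells. ZsGreen stood at 15.8 UMIs per 10000 in female stroke and 6.5 in female sham cells, and at 14.9 in male stroke and 7.13 in male sham cells. For each gene the stroke pools lay on the same side of both sham pools. That sets neither gene apart, since an exact permutation of 2 against 2 pools cannot go below p = 0.333. How many of all genes do the same was not counted. These levels rest on 14888 and 15224 Tmem119 UMIs in the stroke pools and 19262 and 20520 in the sham pools, so their 95% Poisson intervals are narrow (4.28 to 4.42 in female stroke, for example) but cover counting error only.

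The test across all genes used edgeR's quasi-likelihood test on UMIs summed per pool, with sex as a term and TMM scaling (a trimmed mean that sets the bulk of genes to no change). On that scale Tmem119 was at 4.77 UMIs per 10000 in female stroke and 8.52 in female sham cells, and at 5.14 in male stroke and 8.04 in male sham cells. Tmem119 fell by 0.74 ± 0.15 on the log2 scale (SE, 2 stroke against 2 sham pools, Benjamini-Hochberg adjusted p = 5.83e-06), with log2 changes of -0.84 in females and -0.64 in males. ZsGreen was at 17.3 and 5.78 UMIs per 10000 in female stroke and female sham cells, and at 16.4 and 6.63 in male stroke and male sham cells. It rose by 1.45 ± 0.16 (log2, adjusted p = 1.17e-18), with 1.58 in females and 1.31 in males. The same test called 47.9% of the 14011 genes tested, 24% higher and 23.9% lower, so a call by itself does not set either gene apart. By size, 12.7% of the tested genes changed further down than Tmem119 and 6.44% further up than ZsGreen. The fit had 1 residual degree of freedom and infinite prior degrees of freedom. The SE and p thus rest on a spread estimated over all genes, not on that of Tmem119 or ZsGreen between pools. How much single mice vary cannot be known from pools.

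How far Tmem119 was lower depended on the scale. Per cell, Tmem119 averaged 4.71 UMIs in female stroke and 6.06 in female sham cells, but 5.07 in male stroke and 5.12 in male sham cells, which lie close together. The median microglia-like cell held 8353 UMIs in female stroke and 6192 in female sham, and 8373 in male stroke and 5420.5 in male sham, so in males the lower level per 10000 went with more UMIs per cell, and whether these reflect RNA content or sequencing depth cannot be told apart. ZsGreen averaged 17.1 UMIs per cell in female stroke and 4.11 in female sham cells, and 16.2 in male stroke and 4.23 in male sham cells, higher on either scale.

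**Figure D1:**
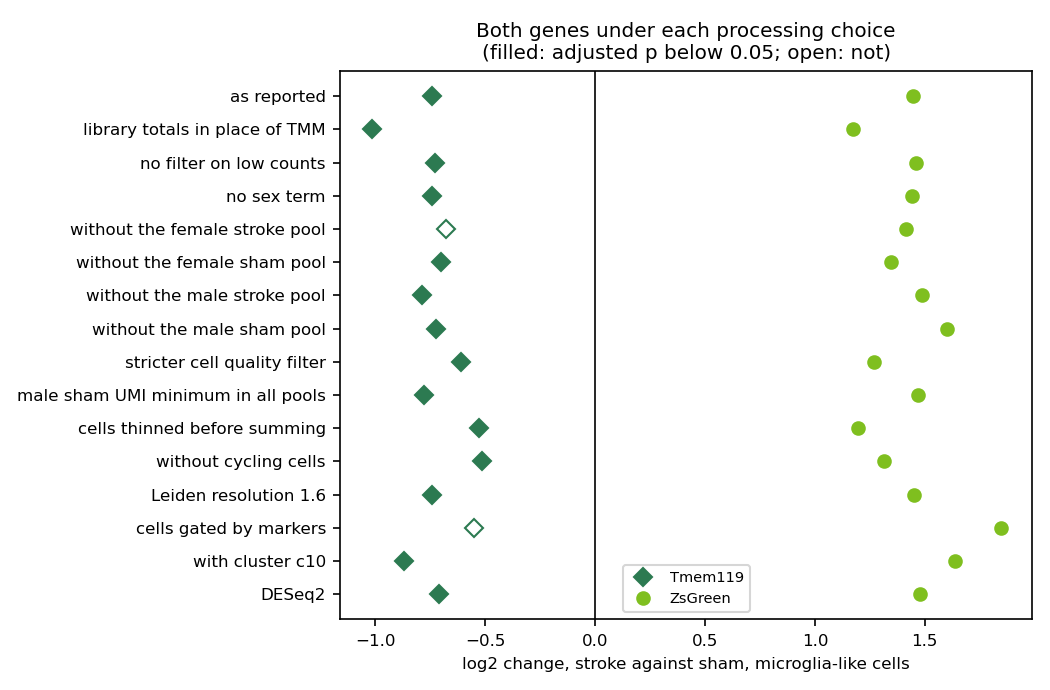
Log2 change of Tmem119 (diamonds) and ZsGreen (circles), stroke against sham, in microglia-like cells under each processing choice, with filled symbols where the adjusted p is below 0.05. Tmem119 lies between -1.02 and -0.52 and ZsGreen between 1.17 and 1.84. Tmem119 misses the threshold without the female stroke pool and when cells are gated by markers.

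The directions of Tmem119 and ZsGreen were the same under every processing choice plotted. Without the female stroke pool Tmem119 changed by -0.68 on the log2 scale and missed the threshold (edgeR adjusted p = 0.0631). That fit has no sex term, and its spread between pools comes from the 2 sham pools, with the lone male stroke pool assumed to vary like them. With all 4 pools and no sex term the change was -0.74 (edgeR adjusted p = 0.0018). With library totals in place of TMM it changed by -1.02 and ZsGreen by 1.17, while the median of all genes moved from -0.05 to -0.32.

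Set against each other, the 2 RNAs changed place. ZsGreen outnumbered Tmem119 by 3.62 UMIs to 1 in female stroke cells, against 0.678 to 1 in female sham cells, and by 3.20 to 1 in male stroke cells, against 0.825 to 1 in male sham cells. The ratio needs no scaling by library size, and its log2 change was 2.42 (95% interval 2.38 to 2.46, counting error only) in females and 1.96 (1.92 to 1.99) in males. With cells thinned to 2000 UMIs before summing, so that each cell counted equally, it was 1.97 in females and 1.48 in males. With each cell thinned to 2000 UMIs, 60.1% of female stroke and 83.5% of female sham cells had a Tmem119 UMI, as did 61.8% and 79.6% in male stroke and male sham. ZsGreen was found in 89.0% of female stroke and 66.1% of female sham cells, and in 85.8% of male stroke and 71.8% of male sham cells. Before thinning, Tmem119 was found in 92.5% (female stroke), 95.9% (female sham), 91.7% (male stroke) and 97.2% (male sham) of cells, and ZsGreen in 96.4%, 88.2%, 95.9% and 94.9% in the same order. Thinning left out 100 female stroke, 184 female sham, 119 male stroke and 0 male sham cells. For background, neuron-like cells of the female sham pool, at a median of 5078 UMIs, had a Tmem119 UMI in 7.32% and a ZsGreen UMI in 6.05% of thinned cells (12.8% and 13.4% before thinning). In neuron-like cells of the male sham pool, at a median of 5698.5 UMIs, these shares were higher, at 16.2% and 16.9% (30.9% and 36.0% before thinning). The stroke pools had at most 10 neuron-like cells each, too few for such a share.

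Several features of the cells moved with this change, and whether they caused it was not tested. Cells with 3 or more UMIs of cell cycle genes after thinning were 23.5% of female stroke and 1.5% of female sham microglia-like cells, and 20.8% of male stroke and 2.02% of male sham. In the female stroke pool Tmem119 was at 5.42 UMIs per 10000 in cells with no cell cycle UMI and at 3.08 in cells with 3 or more, while ZsGreen was at 13.8 and 18.4. In the male stroke pool the same strata gave 5.65 and 3.23 for Tmem119 and 12.8 and 17.7 for ZsGreen. In sham cells with no cell cycle UMI, Tmem119 was at 9.77 (female) and 8.86 (male) and ZsGreen at 6.37 and 6.95. Stroke and sham cells of this stratum thus differed in both genes. Over all microglia-like cells of the female and male stroke pools, Tmem119 was lower, at 4.35 and 4.66, and ZsGreen higher, at 15.8 and 14.9. Having no cell cycle UMI among 2000 does not show that a cell was not cycling. Mitochondrial share graded the levels too: in female stroke cells Tmem119 was at 6.01 UMIs per 10000 below a share of 2%, at 4.93 between 2 and 5% and at 3.81 between 5 and 10%. The fitted log2 changes, -0.74 for Tmem119 and 1.45 for ZsGreen, became -0.52 and 1.32 without cycling cells and cells under 2000 UMIs. A stricter cell filter, with at least 1000 genes and at most 5% mitochondrial UMIs, gave -0.61 and 1.27.

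Markers of blood-borne macrophages also moved with stroke in the microglia-like cells. The 10 macrophage markers summed to 11.9 UMIs per 10000 in female stroke and 5.83 in female sham cells, and to 11.5 in male stroke and 5.14 in male sham, with none of the 10 at 0. Lyz2, a lysozyme gene, made up 8.04, 5.63, 7.56 and 4.96 of these in the order female stroke, female sham, male stroke and male sham. Fn1, which encodes fibronectin, was at 2.73 in female stroke and 0.00945 in female sham cells, and at 2.93 in male stroke and 0.00716 in male sham cells, and made up more of the difference in the sum than Lyz2 did in either sex. Vim, which encodes the intermediate filament vimentin, was at 0.616 in female stroke and 0.0602 in female sham cells, and at 0.639 in male stroke and 0.0707 in male sham cells. Ccr2, the chemokine receptor of blood monocytes, was between 0.0265 and 0.0678. Choroid plexus markers were at 1.79 and 5.77 UMIs per 10000 in female stroke and female sham cells, and at 1.16 and 16.8 in male stroke and male sham.

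Re-clustering the microglia-like cells without Tmem119, ZsGreen, sex-linked genes, mitochondrial genes and markers of neighbouring cell types gave 11 clusters, m0 to m10. Over the 33 combinations of cluster and pool with at least 50 cells, Tmem119 spanned 2.91 to 11.9 UMIs per 10000 in the stroke pools (median 4.67) and 3.48 to 10.6 in the sham pools (median 9.2). ZsGreen spanned 2.33 to 18.7 in the stroke pools (median 12.3) and 2.11 to 11.3 in the sham pools (median 7.32). These ranges overlap for both genes. Since clusters and levels come from the same cells, they are given as descriptions.

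**Figure D2:**
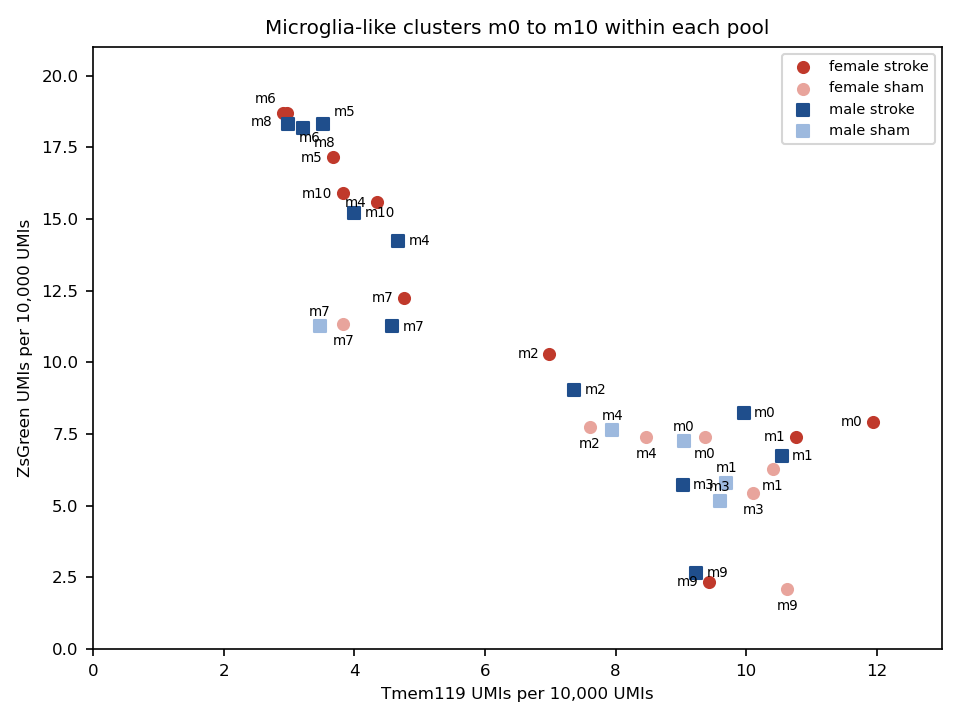
ZsGreen against Tmem119, both in UMIs per 10000, for each microglia-like cluster within each pool (at least 50 cells). Stroke points run from m0 (female, Tmem119 11.9 and ZsGreen 7.93) to m8 (female, 2.91 and 18.7), and the sham points of m7 lie apart from the other sham points at 3.48 to 3.83 Tmem119 and 11.3 ZsGreen.

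Some clusters had high Tmem119 in stroke and sham pools alike. In m1, led by Upk1b, Sox4 and P2ry12 (a purinergic receptor of resting microglia), Tmem119 was at 10.8 UMIs per 10000 in female stroke and 10.4 in female sham cells, and at 10.5 in male stroke and 9.70 in male sham cells. ZsGreen in m1 was at 7.41 and 6.27 in female stroke and sham, and at 6.75 and 5.80 in male stroke and sham. In m0, led by the immediate early genes Fos and Jun, Tmem119 was at 11.9 and 9.36 in female stroke and sham and at 9.96 and 9.04 in male stroke and sham. In m0 and m1 the stroke cells thus had no lower Tmem119 than the sham cells of the same sex. These clusters held few of the stroke cells: m1 had 102 female stroke cells against 1217 female sham, and 109 male stroke cells against 1159 male sham.

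Other clusters consisted mostly of stroke cells and carried little Tmem119 beside much ZsGreen. In m5, led by Lpl, Cst7 and Apoe, genes of the disease-associated state, Tmem119 was at 3.67 (female stroke) and 3.52 (male stroke) and ZsGreen at 17.1 and 18.3. In m6, led by Hist1h1b and with the mitotic genes Top2a and Mki67, Tmem119 was at 2.96 and 2.99 and ZsGreen at 18.7 and 18.3. S phase genes in m6 summed to 14.3 (female stroke) and 14.2 (male stroke), close to 14.4 and 13.9 in m10. Genes of G2 and M phase summed to 45.2 and 45.1 in m6, against 3.15 and 3.65 in m10. Cluster m8, led by Ccnb2 and Cdc20 and with genes of G2 and M phase, had 2.91 and 3.21 Tmem119 and 18.7 and 18.2 ZsGreen. Cluster m10, with the replication genes Mcm6 and Mcm4, had 3.83 and 4.00 Tmem119 and 15.9 and 15.2 ZsGreen. The largest stroke cluster, m2, lay in between, with 6.99 and 7.37 Tmem119 and 10.3 and 9.03 ZsGreen.

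Cluster m4, led by the interferon-induced genes Ifit3, Rsad2 and Isg15, had cells from all pools. There Tmem119 was at 4.35 UMIs per 10000 in female stroke and 8.47 in female sham cells, and at 4.67 in male stroke and 7.95 in male sham cells. The difference within m4 was -0.96 in females and -0.77 in males on the log2 scale, and for ZsGreen 1.08 and 0.90. Cells of the same cluster thus differed in both genes between stroke and sham pools, which was not tested. They also differed in other ways. Other homeostatic genes, P2ry12 and Cx3cr1 among them, summed to 144 UMIs per 10000 in female stroke and 218 in female sham, and to 145 in male stroke and 236 in male sham. Median depth was 9626 and 6391.5 UMIs in female stroke and sham, and 10216 and 5618.5 in male stroke and sham.

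Cluster m7, led by the chemokine genes Ccl4 and Ccl3 with Apoe and Atf3, was the opposite case, since its Tmem119 was no lower in stroke than in sham cells. It held 87 female stroke and 84 female sham cells, and 55 male stroke and 225 male sham cells. Tmem119 was at 4.76 (female stroke), 3.83 (female sham), 4.58 (male stroke) and 3.48 (male sham), and ZsGreen at 12.3, 11.3, 11.3 and 11.3 in the same order. On the log2 scale Tmem119 differed by 0.31 in females and 0.40 in males, higher in stroke, which was not tested. Its Poisson intervals were 4.24 to 5.33 in female stroke and 3.44 to 4.24 in female sham cells. In male stroke and male sham cells they were 3.99 to 5.23 and 3.22 to 3.75. These intervals cover counting error only, with 1 pool each, and say nothing on the spread between pools. The ZsGreen to Tmem119 ratio of its sham cells was 2.96 (female) and 3.24 (male), against 0.678 and 0.825 over all sham microglia-like cells of the same sex. Stroke and sham cells of m7 also differed in other ways. Genes of the disease-associated state summed to 73.2 (female stroke), 321 (female sham), 27.1 (male stroke) and 129 (male sham) UMIs per 10000. Chemokine genes summed to 61.5, 36.9, 73.2 and 42.5 in the same order, and median depth was 6112, 10350.5, 7622 and 7721 UMIs.

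Low ZsGreen together with high Tmem119 was found in m9, a cluster of cells with few UMIs (median 1537) led by nuclear RNAs such as Malat1. Tmem119 was at 9.43 in female stroke and 10.6 in female sham cells, and at 9.24 in male stroke cells. ZsGreen was at 2.33, 2.11 and 2.66 in the same order. This pattern stands at the low end of depth and its cause was not tested.

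The strongest reporter signal lay outside the microglia-like class, in an unnamed cluster, c10, of 585 cells, led by Spp1 (osteopontin), Ch25h (a cholesterol hydroxylase), Igf1, Mt2 and Lpl. It held 321 female stroke and 0 female sham cells, and 256 male stroke and 8 male sham cells. ZsGreen was at 28.4 UMIs per 10000 in female stroke and 27.8 in male stroke cells, which was 180% and 187% of the microglia-like level of the same pool, and 100% of the cells had a ZsGreen UMI. Tmem119 was at 1.43 and 1.5, or 32.9% and 32.3% of the microglia-like level. ZsGreen outnumbered Tmem119 by 19.8 to 1 in female stroke and 18.5 to 1 in male stroke cells.

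Cluster c10 was left unnamed because Fn1 (fibronectin), a marker on the macrophage list, was among its 10 leading genes. All 10 microglia markers were found in at least 25% of its cells in either stroke pool, at 16.0% to 108% of the microglia-like level in female stroke (median 46.4%) and 15.1% to 114% in male stroke (median 47.5%). Fcrls, a microglial Fc receptor-like gene, was the highest of them. Of the 10 macrophage markers, 3 were found in at least 25% of its cells, namely Lyz2, Fn1 and Vim. Fn1 was at 11.7 and 12.1 UMIs per 10000 in c10 (female and male stroke), against 12.7 and 11.4 in the macrophage-like cluster c3. Ccr2 was at 0.0246 and 0.0207 in c10, against 7.34 and 7.48 in c3, and Ly6c2, a surface gene of blood monocytes, had 2 and 0 UMIs in c10. Counting c10 with the microglia-like cells gave log2 changes of -0.87 for Tmem119 and 1.64 for ZsGreen.

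Monocyte-derived macrophage-like cells, which enter the injured brain from the blood, made up 22.0% of the female stroke pool and 0.325% of female sham, and 14.2% of male stroke and 0.908% of male sham, although the sort was for ZsGreen. Their ZsGreen level was 1.18 UMIs per 10000 in 1094 female stroke cells, 0.851 in 581 male stroke cells and 1.25 in 45 male sham cells. Tmem119 was at 0.553 in female stroke, 0.493 in male stroke and 1.63 in male sham. Of the 45 male sham cells 25 were in cluster c20, led by Ear2, Itgal and Pglyrp1, and 19 in cluster c3, led by Arg1 and Thbs1. Cluster c20 held only 9 female stroke and 5 male stroke cells. The male sham values thus rest on another mix of cells than the stroke values. In the main cluster of this class, c3, ZsGreen was 6.49% of the microglia-like level in female stroke and 4.09% in male stroke, and Tmem119 11.7% and 9.55%.

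Microglia markers were also found in c3. The 10 microglia markers stood at 5.07% to 24.9% of their microglia-like level in female stroke (median 9.39%) and at 3.17% to 23.3% in male stroke (median 7.55%), and 7 of the 10 stood at or above ZsGreen in either pool. ZsGreen in c3 thus lay toward the low end of the range of microglia markers in the same cells. It was not spread evenly over the cells: at 4000 UMIs a cell its variance was 2.63 times its mean in female stroke and 1.93 times in male stroke, with up to 10 and 7 UMIs in a cell. ZsGreen and Tmem119 were found together in 4.79% (female stroke) and 4.21% (male stroke) of the c3 cells at that depth, against 3.49% and 2.13% if they were independent. The source of ZsGreen RNA in these cells was not tested. After thinning to 2000 UMIs, 82.1% (female stroke) and 87.3% (male stroke) of the cells in c3 had a UMI of neither gene, at a median depth of 13434 and 13410 UMIs before thinning. A smaller cluster under the same name, c19, differed from c3. Its 34 female stroke cells, led by Chil3 and Ch25h, had 13.7 ZsGreen and 3.54 Tmem119 UMIs per 10000, at a median of 3466.5 UMIs a cell. These were 86.6% and 81.4% of the microglia-like level, above the 10 microglia markers at 50% to 67.8%.

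**Figure D3:**
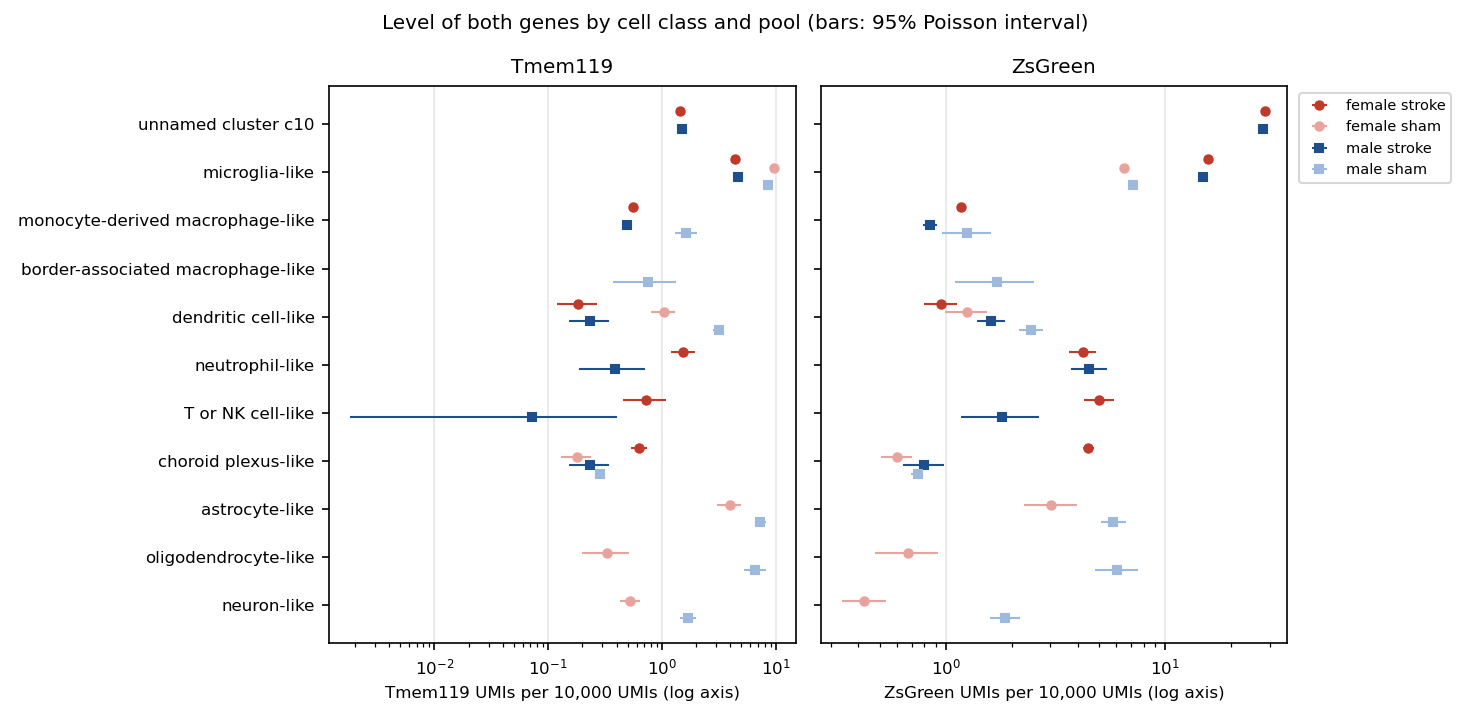
Tmem119 (left) and ZsGreen (right) in UMIs per 10000 on log axes, by cell class and pool, for classes with at least 20 cells in the pool and with 95% Poisson intervals. Cluster c10 has the highest ZsGreen (28.4 and 27.8 in the stroke pools), while Tmem119 is highest in sham microglia-like cells (9.58 and 8.64).

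In the remaining classes the 2 genes were read against the level of the microglia markers in the same cells, which differed between pools. In neuron-like cells ZsGreen was at 0.426 UMIs per 10000 in 329 female sham cells and 1.86 in 136 male sham cells, and Tmem119 at 0.529 and 1.70. For ZsGreen that was 6.55% and 26.2% of the microglia-like level, against medians of 5.72% and 23.5% for the microglia markers. Astrocyte-like cells of the male sham pool had 7.33 Tmem119 and 5.81 ZsGreen UMIs per 10000, 84.8% and 81.6% of the microglia-like level, with the microglia markers at 75.3% to 92.3%. In 47 female sham astrocyte-like cells the levels were 3.95 and 3.03 UMIs per 10000, and ZsGreen, at 46.7%, was above the markers at 26.6% to 41.6%. ZsGreen was also marginally above them in 329 female sham neuron-like cells (highest marker 6.55%) and in 20 male sham oligodendrocyte-like cells (84.8%, with the highest marker at 84.1%).

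**Figure D4:**
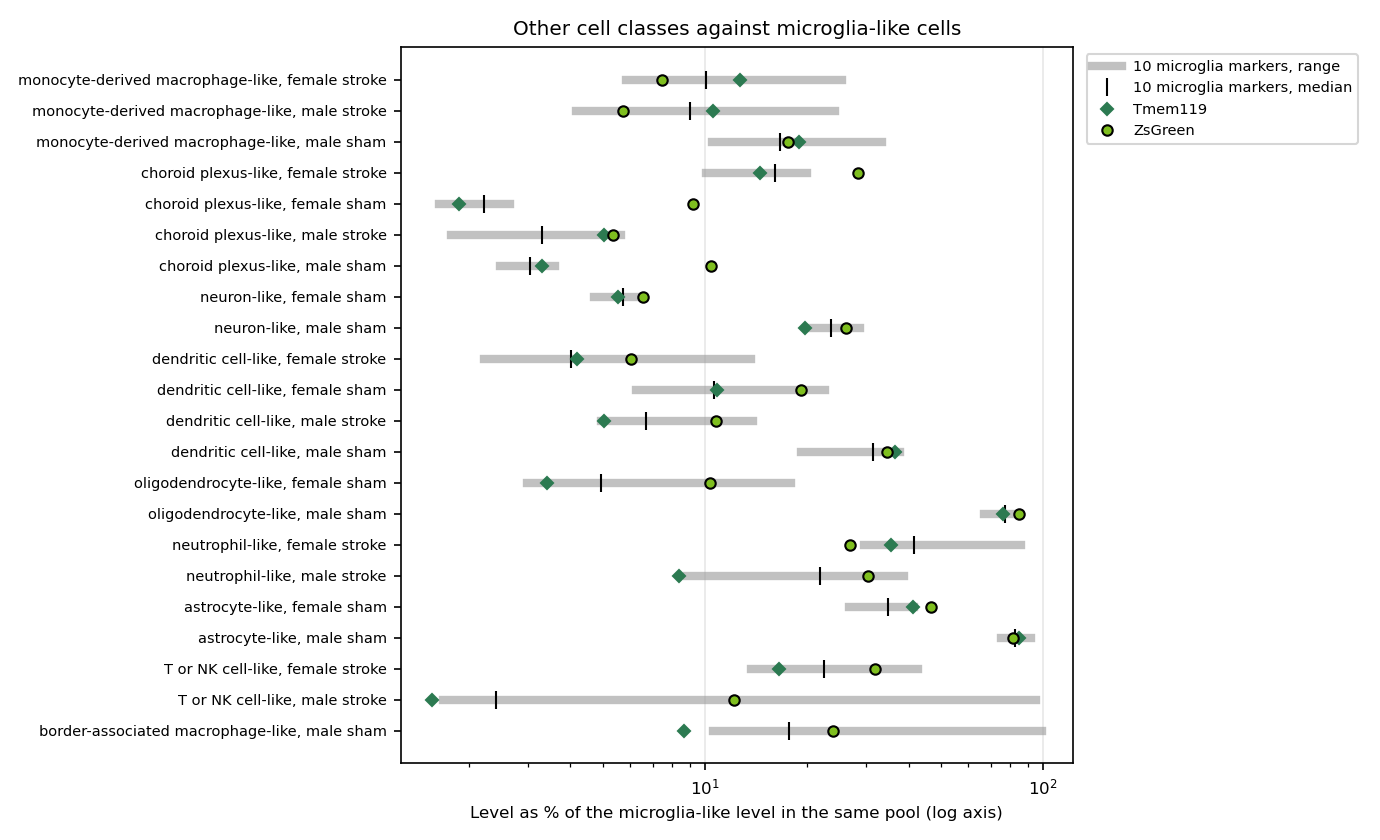
Levels in other cell classes as percent of the microglia-like level of the same pool (log axis), for ZsGreen (circles), Tmem119 (diamonds) and the 10 microglia markers (bar for the range, tick for the median), in classes with at least 20 cells. In choroid plexus-like cells ZsGreen lies right of the marker range in female stroke (28.3%), female sham (9.2%) and male sham (10.4%).

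Choroid plexus-like cells, the epithelium that secretes cerebrospinal fluid and expresses transthyretin (Ttr), had ZsGreen above all 10 microglia markers in 3 of 4 pools. ZsGreen was at 4.47 UMIs per 10000 in 100 female stroke cells and 0.598 in 111 female sham cells, and at 0.796 in 46 male stroke cells and 0.744 in 536 male sham cells. As a share of the microglia-like level it was 28.3% in female stroke, with the 10 markers between 10.1% and 20.1%, and 9.2% in female sham, with the markers between 1.63% and 2.65%. In male sham it was 10.4%, with the markers between 2.48% and 3.59%. In male stroke it was 5.34%, inside the marker range of 1.77% to 5.63%. Tmem119 did not share this excess: it was at 14.5% and 1.87% in female stroke and female sham, inside the marker range, and at 5.03% and 3.30% in male stroke and male sham, also inside it. Median depth was 17145 to 22685.5 UMIs per cell, well above that of microglia-like cells, and the part of doublets was not tested.

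Blood-borne classes other than macrophages gave mixed readings. Neutrophil-like cells had 4.22 ZsGreen UMIs per 10000 in 115 female stroke cells and 4.51 in 68 male stroke cells, or 26.8% and 30.3% of the microglia-like level, against markers at 29.6% to 85.7% and 8.87% to 38.7%. Dendritic cell-like cells had 0.951 ZsGreen UMIs per 10000 in female stroke and 1.25 in female sham, and 1.61 in male stroke and 2.46 in male sham. Each of these values lay within the range of the microglia markers in the same cells, except in female stroke neutrophil-like cells, where it lay below. T or NK cell-like cells had 5.01 in 38 female stroke cells and 1.81 in 24 male stroke cells, also within the marker range. In either pool, however, only 1 of the 10 markers, Siglech, stood at or above ZsGreen. In male stroke ZsGreen was at 12.2% of the microglia-like level, with the marker median at 2.41% and Siglech at 95.4%. Among dendritic cell-like cells, only Csf1r stood at or above ZsGreen in female sham and male stroke. In female stroke and male sham 3 markers did.

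Cell by cell, Tmem119 and ZsGreen RNA were weakly opposed in microglia-like cells, with Spearman correlations at 2000 UMIs a cell of -0.172 in female stroke and -0.0509 in female sham, and of -0.188 in male stroke and -0.0499 in male sham. At 2000 UMIs a cell, both RNAs were found in 52.5% of female stroke and 54.6% of female sham cells, and in 51.6% of male stroke and 56.9% of male sham cells, so the share with both was similar. If the 2 RNAs were independent, these shares would be 53.4%, 55.2%, 53.1% and 57.2% in the same order, close to those found. The cells with only 1 of the RNAs differed, which largely follows from the share of cells with each RNA given above. ZsGreen without Tmem119 was found in 36.5% of female stroke and 11.5% of female sham cells, and in 34.2% of male stroke and 14.9% of male sham cells. Tmem119 without ZsGreen was found in 7.61% of female stroke and 28.9% of female sham cells, and in 10.2% of male stroke and 22.8% of male sham cells. A cell with no ZsGreen UMI is no proof of an unrecombined cell at this depth, since with 4000 UMIs a cell ZsGreen was found in 98.3% of female stroke and 87.8% of female sham cells, and in 96.7% of male stroke and 90.5% of male sham cells.

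At 4000 UMIs a cell, mean Tmem119 was lower in cells with more ZsGreen, except between the first steps of the male sham pool. In the female stroke pool its mean was 2.77 UMIs in cells with 0 ZsGreen UMIs, 2.64 with 1 to 2, 2.33 with 3 to 5, 1.68 with 6 to 9 and 1.38 with 10 or more. Male stroke cells gave 3.13, 2.85, 2.34, 1.85 and 1.34 over the same steps. In the female sham pool the means were 4.19, 3.95, 3.77, 3.60 and 2.18, and in the male sham pool 3.67, 3.73, 3.49, 3.14 and 2.11, where the last step held only 17 and 37 cells. Stroke cells had less Tmem119 than sham cells of the same sex at every step. Part of the relation lay between clusters: within a cluster and pool the Spearman correlation over cells ran from -0.227 to 0.213 with a median of -0.0855 over 27 cases, 24 of them negative. Cells of a case share a library, and correlations this weak in sparse counts are no finding by themselves.

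Across the 33 cluster and pool combinations of the microglia-like cells the 2 RNAs ran in opposite directions, with a Pearson correlation of -0.829 between their log2 levels. It was -0.931 over the 30 combinations without the low-depth cluster m9, a subset chosen after seeing the data. These points share 4 libraries, and clusters were formed from other genes of the same cells, so the correlations are descriptions.

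Genes that followed Tmem119 most closely over these combinations, among 3249 expressed genes, were Selplg (r = 0.983), P2ry13 (0.976), Lrba (0.969) and Adgrg1 (0.968). P2ry13 encodes a purinergic receptor and Adgrg1 an adhesion G protein-coupled receptor. The least like it were Mif (-0.952), Pkm (-0.944) and Bola2 (-0.928). Selplg, which encodes the P-selectin ligand PSGL-1, is also a neighbour of Tmem119, at 113818536 to 113832644 on the same strand of chromosome 5, 18020 bp away. Its level ran from 7.98 to 32.2 UMIs per 10000 over the same points, and its correlation with Tmem119 was 0.981 over the 21 stroke and 0.981 over the 12 sham points.

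ZsGreen was followed most closely by Cfl1 (0.990), Nme2 (0.984), Myl6 (0.983), Rpl41 (0.982) and Atp5mpl (0.977). Cfl1 encodes cofilin, which severs actin filaments, and Myl6 a myosin light chain. The least like it were Son (-0.981), 4632427E13Rik (-0.972) and Ivns1abp (-0.963). Beta-actin (Actb) ranked 11 of the 3249 genes at 0.973, and Actg1 ranked 23 at 0.966, whereas the transcript of the Rosa26 locus, Gt(ROSA)26Sor, reached 0.444. ZsGreen had 223 genes at 0.9 or more and Tmem119 119, so a high value was common. Actb correlated with ZsGreen at 0.987 over the stroke and 0.908 over the sham points.

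**Figure D5:**
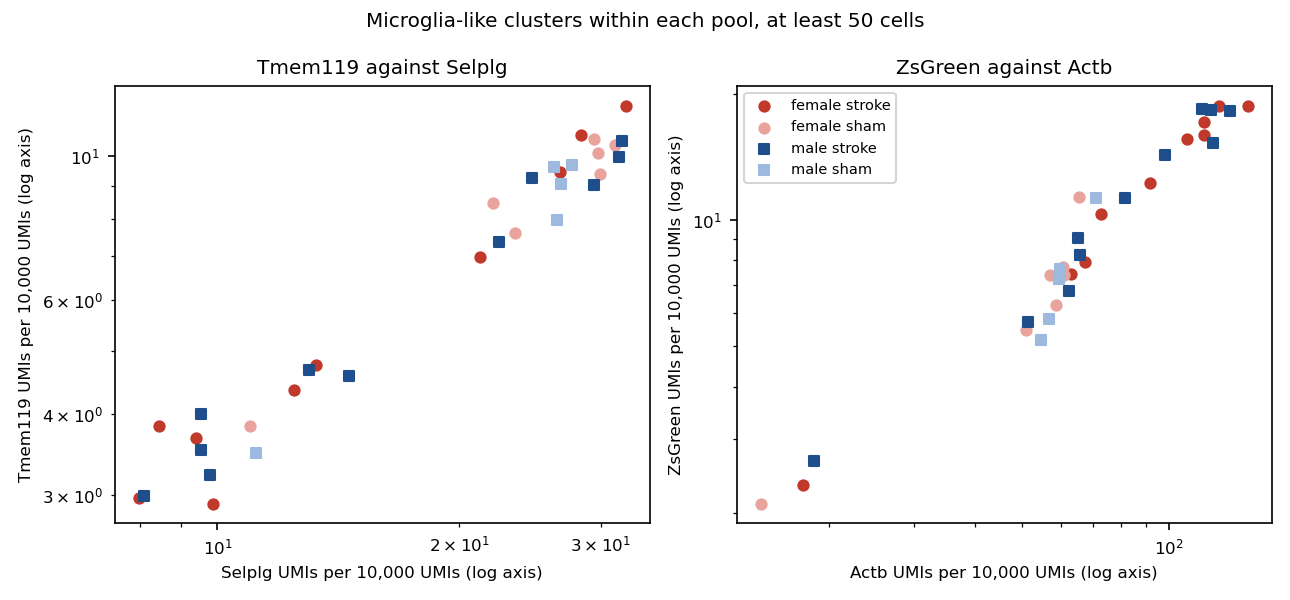
Tmem119 against Selplg (left) and ZsGreen against Actb (right), in UMIs per 10000 on log axes, for microglia-like clusters within each pool (at least 50 cells). The points fall along a line in either plot, with r = 0.983 and 0.973.

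Over all cell classes and microglia clusters together (50 combinations, 3267 genes), Tmem119 was closest to the microglial genes Gpr34 (0.980), Cx3cr1 (0.979), P2ry12 (0.977), Siglech (0.976) and Slco2b1 (0.975). ZsGreen was closest to Npl (0.930), Gpr84 (0.867), Lap3 (0.862), Mzt2 (0.857) and Xlr (0.854), and its correlation with Tmem119 was 0.554. The least like Tmem119 were Emb (-0.798), Gsn (-0.797) and Gpi1 (-0.759), and the least like ZsGreen Ahcyl2 (-0.723), Emb (-0.684) and Smim14 (-0.616).

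Of 20 homeostatic microglia genes other than Tmem119, 13 fell, 2 rose and 5 did not pass edgeR's quasi-likelihood test after stroke, beside 23.9% lower and 24% higher of all genes tested. Their median log2 change was -0.70, beside -0.05 for all tested genes and -0.74 for Tmem119. The largest falls were in Entpd1, which breaks down extracellular ATP (-1.31), Cst3, a protease inhibitor (-1.18), P2ry12 (-1.12) and Tgfbr1, a TGF-beta receptor (-1.03). Fcrls rose by 0.63 and Olfml3, which encodes a secreted matrix protein, by 0.36, both named after their values were seen, and with library totals Olfml3 had 0.09. With library totals 18 fell and 1 rose, beside 43.3% lower and 15.3% higher of all genes. Of 18 genes of TGF-beta signalling and microglial lineage, 10 fell and 0 rose, with a median of -0.37 and the same 23.9% and 24% over all genes. Itgb8, the integrin subunit that activates TGF-beta, changed by -1.72 ± 0.58 on few counts, Mef2a, a transcription factor, by -0.86 and Sall1, a factor of microglial identity, by -0.59, while Tgfbr1 and Sall1 stand on both lists. Without the female stroke pool 8 of the 20 homeostatic genes and 2 of the 18 TGF-beta and lineage genes fell and 0 rose, beside 10% lower and 14.3% higher of all genes. Without the male stroke pool 10 and 3 fell and 0 rose, beside 10.9% lower and 14.9% higher. The share of the TGF-beta and lineage list was then near that of all genes.

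Actin genes rose after stroke, as ZsGreen did, and whether these changes are linked was not tested. Of 10 genes of the actin cytoskeleton 9 rose and 0 fell, with a median log2 change of 0.95, beside 24% higher of all genes. Library totals in place of TMM left 8 higher and 0 lower, beside 15.3% higher. Thymosin beta-4 (Tmsb4x) rose by 1.36, Cfl1 by 1.31, Actb by 1.17 and Myh9, a non-muscle myosin heavy chain, by 1.14. Actr2, of the Arp2/3 complex, had 0.29 (adjusted p = 0.0813 by edgeR's quasi-likelihood test) and did not pass. At the Rosa26 locus, where Ai6 sits, Gt(ROSA)26Sor rose by 0.52 (adjusted p = 0.00131 by the same test), but with library totals it had 0.25 (adjusted p = 0.142). It is annotated as antisense on chromosome 6, from 113067428 to 113077333, and reads of an overlapping gene on the other strand cannot be told apart without stated strand use. Its neighbours Thumpd3 and Setd5 had -0.09 and -0.20 and did not pass, and with library totals both were lower.

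Most genes often used as constitutive references were also higher. Of 12 such genes 9 rose and 0 fell, with a median of 0.62, beside 24% higher of all genes, while library totals gave 7 higher and 2 lower, beside 15.3% and 43.3%. The glycolytic genes Pgk1 and Gapdh rose by 1.87 and 1.61, B2m, of the class I MHC, by 0.84 and Tpt1 by 0.77. Ubb had -0.10 and Tbp -0.25, and neither passed. ZsGreen, at 1.45, lay below Pgk1 and Gapdh and above all the other reference genes, of which B2m was the highest at 0.84. It also lay above all 10 actin genes, of which Tmsb4x was the highest at 1.36.

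Within 100 kb of Tmem119 the annotation held 11 other genes. Of these, 4 were not among the counted features and 2 had too few counts, which left 5 tested, and their changes went in both directions. Selplg, which is also on the homeostatic list, fell by 0.80 ± 0.16, with 13.5 UMIs per 10000 on the TMM scale in female stroke and 25.5 in female sham cells, and 14.8 in male stroke and 23.6 in male sham cells. Ficd, which encodes an enzyme of the endoplasmic reticulum, fell by 0.51, with 0.0580 in female stroke against 0.0867 in female sham and 0.0581 in male stroke against 0.0791 in male sham cells. Coro1c, an actin-binding coronin, rose by 1.33, and Sart3, an RNA-binding splicing factor, by 0.56. Iscu, of iron-sulfur cluster assembly, had -0.25 (adjusted p = 0.133 by edgeR's quasi-likelihood test) and did not pass. Thus 2 rose and 2 fell, beside 24% and 23.9% of all genes, and with library totals 1 was higher and 3 lower, beside 15.3% and 43.3%.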

How the data were processed

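Per the labels' protocols, libraries used 10x Genomics 3′ v3.1 chemistry. The deposited matrices hold counts, whole numbers of UMIs per gene and barcode. Cell Ranger 7.1.0 and mm10 are named in the submitters' processing notes, whereas cellranger 6.1.2 stands in the matrices, per the file headers. The sources used here do not say whether introns were included. Of the features, 99.6% matched GENCODE M21 by identifier.

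Kept were 18045 barcodes with 500 genes, 1000 UMIs and at most 10% mitochondrial UMIs. Scrublet marked 8 (0.0443%), too few for the caller to have worked, so doublets other than these 8 remain. Scanpy 1.11.5 and leidenalg 0.10.2 clustered the cells (2000 variable genes without Tmem119, ZsGreen and 7 sex-linked genes, 30 components, 15 neighbours, resolution 0.8). Clusters were named from 17 marker classes by 3 or more markers in 25% of cells, or as microglia-like by 8 of the 10 microglia markers. A cluster with more markers of another class among its 10 leading genes stayed unnamed. Intervals (exact Poisson for levels, Clopper-Pearson for shares) cover counting error only.

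Microglia-like UMIs were summed per pool and tested with edgeR 4.0.16 under R 4.3.3 (quasi-likelihood, terms for sex and treatment, TMM, default filter on low counts, Benjamini-Hochberg at 0.05), with the SE taken as the size of the log2 change over the root of F. The step was tested on simulated data. DESeq2 1.42.0, other scalings, filters and cell choices and leaving out each pool were alternatives. Nothing in the labels says that pools are separate experiments, so the spread between pools may be technical. With 1 pool per sex and treatment, p-values rest on that spread as estimated over all genes, not on that of a single gene. An exact permutation of 2 against 2 pools cannot go below p = 0.333.

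Likeness is Pearson's r of log2(UMIs per 10000 + 0.1) over units of at least 50 cells, among genes averaging at least 0.5. The text names the 4 largest passing changes of a list, those that missed where at most 3 did, and the 5 most and 3 least alike genes, apart from some genes under these rules that are not reported here. Genes, lists and rules were chosen with earlier results of these data known.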

Additional observations from a re-analysis of the deposited data

Results flagged for a closer look

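Barcodes left out by the quality filter still held both RNAs, and more in the stroke pools than in the sham pools. Tmem119 was at 2.07 UMIs per 10000 in those of the female stroke pool and 0.505 in female sham, and at 2.09 in male stroke and 0.185 in male sham. ZsGreen was at 6.73 and 0.699 in female stroke and female sham, and at 7.09 and 0.791 in male stroke and male sham. These barcodes enter no comparison.

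In choroid plexus-like cells the log2 change of Tmem119, stroke over sham, was 1.82 in females and -0.29 in males, so the sexes differed in direction. It rests on 158 UMIs in female stroke and 45 in female sham, and on 25 in male stroke and 378 in male sham, with 1 pool each. These UMIs came from 18 of 100 female stroke and 14 of 111 female sham cells. In males they came from 7 of 46 stroke and 127 of 536 sham cells. The difference between the sexes was not tested.

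In microglia-like cluster m7 the log2 change of ZsGreen was 0.114 in females and -0.002 in males. The signs differ but both values are small, and their difference was not tested.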

How the results depend on the processing

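Tmem119 kept its direction and ZsGreen its direction and call under every alternative fitted. Tmem119 missed the threshold without the female stroke pool (the 4 fits without 1 pool, which have no sex term, ran from -0.79 to -0.68) and with cells gated by markers (-0.55), a gate that left 627 female stroke, 143 female sham, 972 male stroke and 4 male sham cells. Its adjusted p ran from 3.19e-13 to 0.512 over the alternatives. Against 3367 higher and 3346 lower genes, there were 2142 and 6060 with library totals, 1915 and 1343 with thinned cells, and 355 and 51 with the marker gate. Fewer were lower with the stricter cell filter (2128) and with DESeq2 (1444). Leaving out 1 pool gave 2053 to 4263 higher and 1436 to 3823 lower genes. Higher calls were 50.2% of all calls, against 26.1% with library totals and 63.1% with DESeq2.

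The log2 change of the ZsGreen to Tmem119 ratio (2.42 in females, 1.96 in males) was 2.15 and 1.6 with the stricter filter, 2.47 and 2.03 when every pool was held to the lowest UMI number of male sham, 2.04 and 1.63 without cycling cells, 1.97 and 1.48 with thinned cells, 2.75 and 2.26 with c10, and 2.30 and 2.64 with the marker gate, where the order of the sexes turned and male sham held 4 cells. Tmem119 per 10000 in female stroke and male stroke cells was 5.05 and 5.49 with the stricter filter, 4.16 and 4.51 with the UMI minimum, and 3.88 and 4.22 with c10. ZsGreen was 15.2 and 13.8, 16.1 and 15.2, and 17.8 and 16.7 in the same order, and 6.66 in female sham with the UMI minimum. With thinned cells Tmem119 was 5.59 in female stroke and 9.93 in female sham, and 5.81 in male stroke and 9.04 in male sham, and ZsGreen 13.6, 6.17 and 12.6 in female stroke, female sham and male stroke. With the gate Tmem119 was 4.98 in female stroke, 4.95 in male stroke and 11.4 in male sham, and ZsGreen 15.3, 5.92, 14.6 and 5.43 in female stroke, female sham, male stroke and male sham. At 4000 UMIs a cell Tmem119 was found in 78.0% of female stroke and 94.8% of female sham cells and in 79.5% of male stroke and 93.8% of male sham cells, and ZsGreen in 98.3%, 87.8%, 96.7% and 90.5%.

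Among single genes and macrophage shares, 4 of 421 values changed sign, each in a gene that had not passed. Ubb gave -0.19 to 0.05 with 1 pool left out and 0.03 with the marker gate, Thumpd3 0.08 without cycling cells and Iscu 0.09 with the gate. In 42 more a call was lost and in 9 gained, and the cause was not tested. The alternatives with c10 and without m9, and the thinned and gated levels and ratios, were chosen after seeing the data.

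No paired analysis was possible because the labels number no replicates. Sex, with 1 pool per treatment, is a term of the model, which therefore already sets stroke against sham within each sex. Without that term Tmem119 changed by -0.74 and ZsGreen by 1.44. Depth limits shares of cells with a UMI, and 1 pool per sex and treatment limits everything else.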
